A study of Mus musculus with 2 samples.

Results

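A list of 10 genes of the MHC class I antigen presentation pathway was examined in the livers of FLS and DS mice. It was fixed by gene symbol and holds the heavy chains H2-K1, H2-D1, H2-Q10 and H2-T23, their light chain B2m, the peptide transporter subunits Tap1 and Tap2, the loading factor Tapbp, and the immunoproteasome subunits Psmb8 and Psmb9. Of these 10 genes, 9 were among the 18194 genes with a probe set annotated to them alone, and both probe sets of H2-T23 also carried the symbol H2-T-ps. The FLS (fatty liver Shionogi) mouse, an inbred strain from one line of the ddN colony, served as the model of nonalcoholic steatohepatitis (NASH), and the DS (dd Shionogi) mouse, an inbred strain from another line of that colony, as its reference with simple steatosis, although the study's methods also describe DS mice as free of liver abnormalities. All mice were 19 weeks old and ate the same standard pellet diet. RNA of 3 FLS livers was pooled on 1 Affymetrix mouse genome array and RNA of 3 DS livers on another. No difference between the strains could therefore be checked against replicates, and no p-values are reported. The sources used here do not state the H2 haplotype of either strain.

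The class I pathway shows peptides from inside a cell to CD8 T lymphocytes. The proteasome cuts proteins into peptides, the TAP transporter moves them into the endoplasmic reticulum, and tapasin holds empty class I molecules beside the transporter until a peptide is bound. Interferons induce most genes of the pathway, among them immunoproteasome subunits that replace catalytic subunits of the standard proteasome, and resting hepatocytes are known for low surface levels of classical class I molecules.

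All values are linear signal intensities, and a ratio is the FLS signal over the DS signal. Each gene was read from the brightest of its probe sets, by the mean of both pools, and counted as measured if that signal exceeded 500 in at least 1 pool, which 5076 genes did. The median signal over all 45101 probe sets was 120.3 in FLS livers against 125.2 in DS livers, so signals near these medians carry little information on a ratio. The median ratio of measured genes was 1.03. All 7 hepatocyte markers found, Alb among them at 32018 in FLS livers against 30942 in DS livers, exceeded 500 in at least 1 pool, with ratios from 1.01 to 1.35. Pooled liver RNA cannot tell a larger number of cells of a type from more RNA per cell.

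Promoters of class I genes are known for sites of interferon and NF-kB factors, so the sequences upstream of the genes are shown first. They are RefSeq reference sequences of GRCm38.p6, from the C57BL/6J strain and not from FLS or DS mice. Windows of 250 bases before and 50 bases from the annotated start were found for 9 of the 10 genes, all but Tap2. Both strands were searched for the core of interferon regulatory factor (IRF) sites, AANNGAAA, for the NF-kB consensus, and for the STAT site TTCNNNGAA, called GAS. In the first window of each gene, matches were found in 5 of the 9 genes for the IRF core, in 3 for NF-kB and in 1 for GAS. A second window of H2-K1 had the same IRF core and NF-kB matches. Over all 32851 windows of the same length, with several for some genes, the shares were 23.9%, 4.51% and 8.30%. A match describes letters in this window and is no measure of binding.

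The heavy chain genes and B2m are the 5 genes with an IRF core match, shown with the bases around it. Stretches of 98 bases are shown for H2-K1 (chr17:34000380-34000477, minus strand), H2-D1 (chr17:35262904-35263001, plus strand), H2-Q10 (chr17:35469894-35469991, plus strand), H2-T23 (chr17:36032768-36032865, minus strand) and B2m (chr2:122147510-122147607, plus strand). Capitals mark the IRF core and NF-kB matches on either strand, and those of the NF-kB consensus overlap each other in H2-K1 and H2-D1.
H2-K1: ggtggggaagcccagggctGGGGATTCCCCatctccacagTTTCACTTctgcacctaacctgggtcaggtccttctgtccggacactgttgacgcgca
H2-D1: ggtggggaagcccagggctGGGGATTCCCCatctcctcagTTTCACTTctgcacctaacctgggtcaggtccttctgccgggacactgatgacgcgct
H2-Q10: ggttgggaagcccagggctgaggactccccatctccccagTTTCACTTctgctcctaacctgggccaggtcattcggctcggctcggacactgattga
H2-T23: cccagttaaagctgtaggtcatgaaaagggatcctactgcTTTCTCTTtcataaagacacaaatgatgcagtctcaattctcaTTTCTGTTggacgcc
B2m: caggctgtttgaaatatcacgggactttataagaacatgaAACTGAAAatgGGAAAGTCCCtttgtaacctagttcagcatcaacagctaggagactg
Placed on the IRF core match without gaps, H2-K1 and H2-D1 were identical at 93 of 98 bases, while H2-Q10 matched H2-K1 at 73 and H2-D1 at 72. The NF-kB consensus had a match in H2-K1, H2-D1 and B2m, and none in H2-Q10 and H2-T23.

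Tap1 and Psmb9 are neighbours on opposite strands with 225 bases between their starts. The sequence between the starts (chr17:34187331-34187555, strand of Tap1) is upstream of both genes and is printed once, with capitals for the CCAAT box and for the GC box GGGCGG, here read on the other strand. These letters occur in 37.4% and 35.7% of all windows. None of the IRF core, NF-kB consensus and GAS letters lie between the starts.
Tap1 and Psmb9: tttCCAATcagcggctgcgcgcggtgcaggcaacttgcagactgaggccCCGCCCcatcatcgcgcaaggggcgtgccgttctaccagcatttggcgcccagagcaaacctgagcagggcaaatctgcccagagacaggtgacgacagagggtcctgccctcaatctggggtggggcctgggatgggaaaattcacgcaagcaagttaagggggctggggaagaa
The window of Psmb8 was the one with a GAS match, shown in capitals within chr17:34198058-34198146 on the plus strand. No match of these 3 motifs was found in the window of Tapbp.
Psmb8: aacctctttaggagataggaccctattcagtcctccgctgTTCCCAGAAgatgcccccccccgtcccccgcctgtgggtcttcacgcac

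All 9 genes with a value had a higher signal in the FLS pool than in the DS pool, with ratios from 1.03 for B2m to 1.63 for Tap2. Of these, 7 were measured, and Tap1 and Tap2 lay below 500 in both pools. The median ratio of all measured genes was also above 1, at 1.03, so a ratio above 1 was common among measured genes. With no signal limit, the median log2 ratio of all 18194 genes was -0.04. B2m and H2-Q10 lay close to the median of measured genes. Tapbp and Psmb8 exceeded a ratio of 1.5, which is 2 of 7 measured genes, against 6.11% of all measured genes. None of the 7 was at least 1.5-fold lower, which 4.49% of all measured genes were. No member reached 2-fold, which 2.29% of measured genes did upward and 1.77% did downward. The median ratio of the 7 genes was 1.19, or 0.25 on the log2 scale, against 0.04 for all measured genes. Tapbp and Psmb8 lay just over 1.5 and 1 or both fell short of it under several other settings. Quantile normalization, loess or an offset of 50 left 1 of them, and taking the median of each gene's probe sets left 0. The ratios of the 9 genes stayed above 1 under each of 4 other scalings of the arrays, and the median over its 4 probe sets gave 0.997 for Tap1. Among these scalings, median centring and division by Actb raise every ratio, so they could not bring a ratio below 1.

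**Figure D1:**
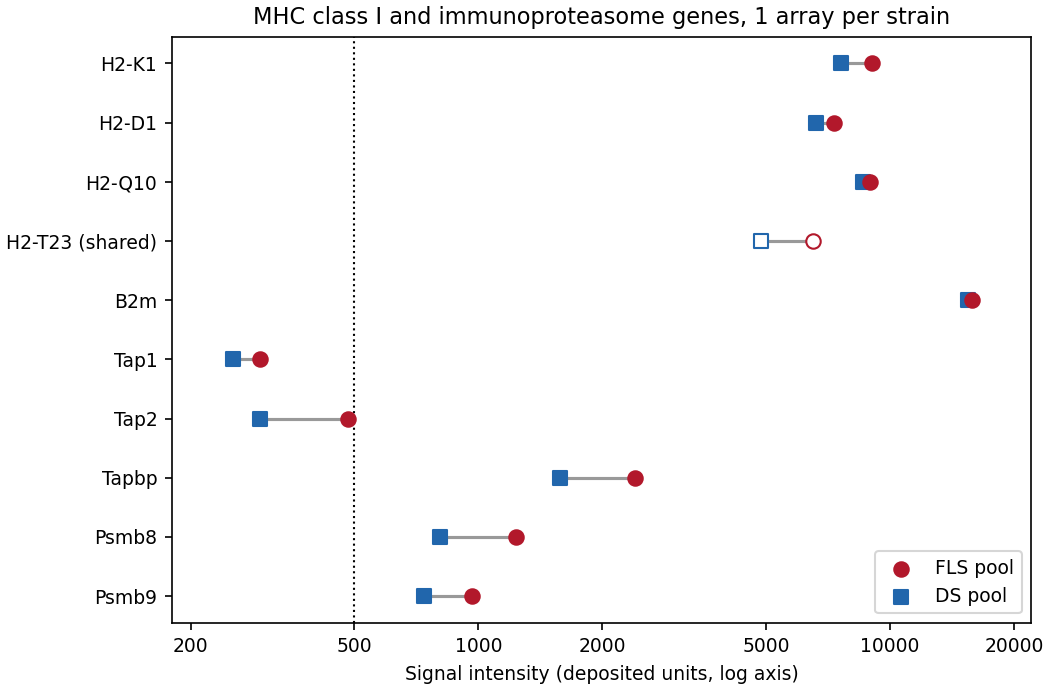
Signal intensity (log axis) of the 10 genes in FLS livers (circles) and DS livers (squares), from 1 pooled array per strain, joined by a line per gene, with open symbols for the probe set that H2-T23 shares with H2-T-ps and a dotted line at 500. The FLS symbol lies to the right of the DS symbol in each gene, and the lines are longest for Tap2, Psmb8 and Tapbp, with ratios of 1.63, 1.53 and 1.52, and shortest for B2m at 1.03.

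The classical heavy chains present peptides to CD8 T lymphocytes. H2-K1 measured 9059 in FLS livers against 7604 in DS livers (ratio 1.19). H2-D1 measured 7295 in FLS livers against 6619 in DS livers (ratio 1.10). Ratios at least as high were found in 1168 of the 5076 measured genes for H2-K1 and in 1793 for H2-D1, so both lay within the bulk of the array. H2-Q10, a class I molecule that the mouse liver secretes, measured 8923 in FLS livers against 8614 in DS livers. Its ratio of 1.04 was close to the median of measured genes. B2m encodes beta-2-microglobulin, the light chain that every classical class I molecule needs. It measured 15831 in FLS livers against 15428 in DS livers (ratio 1.03), and on its second probe set 14059 in FLS livers against 14068 in DS livers (ratio 0.999). Both ratios of the light chain lay at or below the median of measured genes. These genes lie in the upper signal range, where 4.68% of the 556 genes above 5000 were at least 1.5-fold higher in the FLS pool.

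H2-T23 encodes Qa-1, a nonclassical heavy chain that is a ligand of an inhibitory receptor of natural killer cells. Its probe set with the higher signal gave 6501 in FLS livers against 4864 in DS livers (ratio 1.34). The other gave 150.4 in FLS livers against 103.0 in DS livers, close to the array medians, with a ratio of 1.46. Both are shared with H2-T-ps, so they give a value for the pair of symbols and none for H2-T23 alone. Had the brighter of them been counted, 2 of 8 measured genes would have been at least 1.5-fold higher and the median log2 ratio would have been 0.32, a setting chosen after the data were seen.

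TAP1 and TAP2 together form the peptide transporter. Tap2 measured 481 in FLS livers against 295 in DS livers (ratio 1.63), on its single probe set. Tap1 measured 295 in FLS livers against 253 in DS livers (ratio 1.16). The other 3 probe sets of Tap1 gave 55.1 to 72.2 in FLS livers and 55.1 to 72.5 in DS livers, all below the array medians, and the ratios of these 3 ran from 0.830 to 0.998. Tapbp encodes tapasin. Its signal was 2400 in FLS livers against 1582 in DS livers (ratio 1.52), and on a second probe set 371 in FLS livers against 330 in DS livers (ratio 1.13). Both probe sets of Tapbp thus had the higher signal in FLS livers, but only the brighter one passed 1.5-fold.

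Psmb8 and Psmb9 encode catalytic subunits of the immunoproteasome, also known as LMP7 and LMP2. Psmb8 measured 1235 in FLS livers against 807 in DS livers (ratio 1.53), which 293 measured genes reached. A second probe set of Psmb8 lay below both array medians, at 90.2 in FLS livers against 70.5 in DS livers, with a ratio of 1.28. Psmb9 measured 966 in FLS livers against 738 in DS livers (ratio 1.31), which 684 measured genes reached. Psmb9 and Tap1, whose promoter sequence is shared, had ratios of 1.31 and 1.16, the second at a signal below 500.

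MHC genes differ in sequence between mouse strains, so the probe sets of each gene were compared. The 9 genes have 26 probe sets of their own, of which 13 have names ending in _x_at, which marks probes that may also bind related sequences. All 4 probe sets of H2-K1 and 7 of the 9 probe sets of H2-D1 are of this kind. Of 14 probe sets above 500, 13 had a ratio above 1, the exception being the second probe set of B2m. The median ratio of all measured genes was 1.03. H2-K1 had ratios of 1.19, 1.12 and 1.22 on its 3 probe sets above 500, and 1.16 on the fourth, at 154 in FLS livers against 133 in DS livers. H2-D1 had 5 probe sets above 500. Their ratios, from the brightest to the dimmest, were 1.10, 1.12, 1.17, 1.37 and 1.28. The brightest gave 7295 in FLS livers against 6619 in DS livers, and the one with the highest ratio gave 1892 in FLS livers against 1386 in DS livers. The 4 probe sets of H2-D1 below 500 had ratios from 1.05 to 1.34, at signals from 76.3 to 340 in FLS livers and 66.6 to 291 in DS livers. The direction was thus shared by all 13 probe sets annotated to either of these 2 genes alone, while the size of the ratio differed between them. Most of them are _x_at probe sets that may bind the same related sequences, so they are not independent readings of the 2 genes. The pooled SD of the log2 ratio between probe sets of 1 gene was 0.11 for H2-K1 and H2-D1, against 0.22 over the 1424 genes with more than 1 measured probe set. A probe set annotated to both H2-K1 and H2-D1 gave 3842 in FLS livers against 3160 in DS livers (ratio 1.22). One that H2-K1 shares with H2-Q5 went the other way, at 143.5 in FLS livers against 155.4 in DS livers (ratio 0.923). One that H2-D1 shares with H2-Q2 and Gm38417 gave 99.7 in FLS livers against 99.0 in DS livers (ratio 1.007). These last signals lay near the array medians. No probe sequences were read here, so a strain difference in the sequence under a probe set and one in transcript level cannot be told apart.

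**Figure D2:**
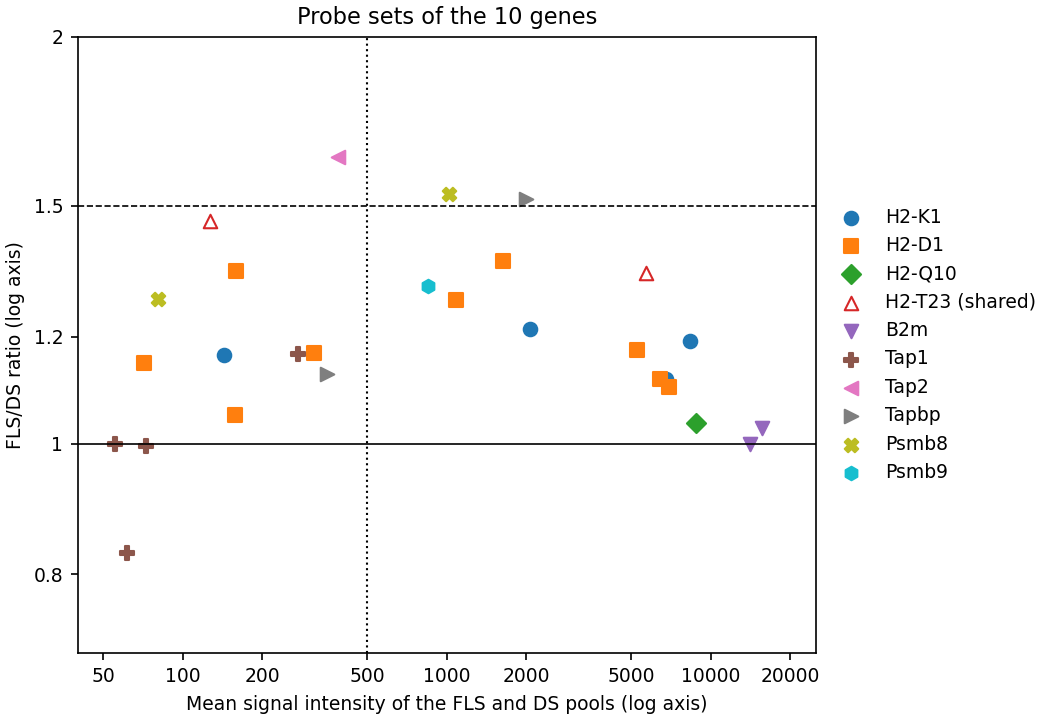
FLS/DS ratio (log axis) against the mean signal of both pools (log axis) for the 26 probe sets of 9 genes and the 2 probe sets that H2-T23 shares (open triangles), with lines at ratios of 1 and 1.5 and at a signal of 500. The probe sets of H2-K1 and H2-D1 all lie above a ratio of 1, between 1.05 and 1.37, and those of B2m lie on it or close to it.

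Other class I heavy chain genes had 17 probe sets, of which 7 carried several symbols and 2, both among these 7, exceeded 500. The probe set of H2-Q7 and H2-Q9, nonclassical heavy chains of the Qa-2 group, gave 577 in FLS livers against 286 in DS livers (ratio 2.02). The probe set of H2-T9, H2-T10 and H2-T22 gave 1753 in FLS livers against 1147 in DS livers (ratio 1.53), but a second probe set with these symbols gave 146 in FLS livers against 148 in DS livers (ratio 0.987). Between 200 and 500, the probe set of H2-Q6 and H2-Q8 gave 391 in FLS livers against 244 in DS livers (ratio 1.61), and one that also carries H2-Q4 gave 234 in FLS livers against 199.8 in DS livers (ratio 1.17). Genes with a probe set of their own lay below 500, among them H2-Q5 at 307 in FLS livers against 311 in DS livers, and H2-M3 at 224 in FLS livers against 227 in DS livers. The 8 such genes had a median ratio of 0.932. These heavy chains were picked for description after their values were seen.

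Other genes listed with peptide trimming and loading, some of which have other main roles, were closer to equal signals. Among 10 measured, 1 passed 1.5-fold upward and none downward, and the median ratio was 1.04. The higher one was Sppl3, an intramembrane protease of the signal peptide peptidase family known for cleaving glycosyltransferases, at 1627 in FLS livers against 642 in DS livers (ratio 2.53). H13, the signal peptide peptidase itself, had a ratio of 1.19, the aminopeptidase Erap1, which trims peptides in the endoplasmic reticulum, of 1.13, and Derl1 of 1.09. Chaperones that fold the heavy chain had ratios of 1.08 for Calr, 1.01 for Pdia3 and 0.948 for Canx.

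Within the proteasome, Psmb10, the third catalytic subunit of the immunoproteasome, measured 840 in FLS livers against 800 in DS livers (ratio 1.05). It was thus below the ratios of Psmb8 and Psmb9. Psme1, a subunit of the interferon-induced activator PA28, measured 2767 in FLS livers against 2189 in DS livers (ratio 1.26), and the probe set that its partner Psme2 shares with Psme2b had a ratio of 1.11. The activator gene Psme4 had a ratio of 0.879 and Psme3 of 0.810. Of 5 measured genes in this group none reached 1.5-fold in either direction, with a median ratio of 0.989. The standard catalytic subunits had ratios of 0.982 for Psmb5, which Psmb8 replaces, 1.02 for Psmb6, which Psmb9 replaces, and 0.862 for Psmb7, which Psmb10 replaces. The other 11 subunits of the core particle had ratios from 0.862 for Psmb1 to 1.25 for Psma6, with a median of 0.969. None of these 14 standard subunits passed 1.5-fold in either direction.

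Regulators of class I transcription were mostly dim, with 6 of 20 found above 500. Irf1, a transcription factor induced by interferon, measured 568 in FLS livers against 347 in DS livers (ratio 1.64), and was the 1 of 6 measured genes that passed 1.5-fold. Rela, a subunit of NF-kB, had a ratio of 1.34, the interferon gamma receptor gene Ifngr1 of 1.27 and Irf2 of 0.904. Of these, Irf1 and Ifngr1 exceeded 500 only in FLS livers. Nlrc5, the transactivator of class I genes, lay below 500 with 367 in FLS livers against 224 in DS livers (ratio 1.64), and was looked up after its value was seen. The signal of Ifng, the interferon gamma gene, was 65.1 in FLS livers against 71.9 in DS livers, below the array medians.

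Genes of the MHC class II pathway and interferon-induced genes are given beside these values. Counts over all genes found use no signal limit. On that basis 3.02% of all 18194 genes were at least 1.5-fold higher in the FLS pool, and their median log2 ratio was -0.04. Of 11 class II pathway genes found, 10 had a ratio above 1 and 5 were at least 1.5-fold higher, and the median ratio of all 11 was 1.26. The class II chain H2-Ab1 measured 1075 in FLS livers against 258 in DS livers (ratio 4.17). H2-Eb1 measured 1517 in FLS livers against 428 in DS livers (ratio 3.55), and H2-Aa 1022 in FLS livers against 299 in DS livers (ratio 3.42). These 3 genes exceeded 500 only in FLS livers and so entered the measured genes through the pool in which they were high. Of the 3 class II pathway genes above 500 in both pools, the invariant chain Cd74 had a ratio of 2.70, the protease Ctss of 1.62 and the thiol reductase Ifi30 of 0.780. Of 29 interferon-induced genes found, 23 had a ratio above 1 and 11 were at least 1.5-fold higher, and the median ratio of all 29 was 1.37. Cxcl9, a chemokine, had a ratio of 2.80, Gbp7 of 2.04 and Irgm2 of 1.79, and these 3 likewise exceeded 500 only in FLS livers. Among the 6 above 500 in both pools, the GTPase gene Ifi47 had a ratio of 3.14 and Bst2 of 0.676. All 7 measured class I and immunoproteasome genes exceeded 500 in both pools, and the highest ratio with the dimmer genes included was 1.63, for Tap2. With 1 array per strain, the difference between these groups was not tested.

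**Figure D3:**
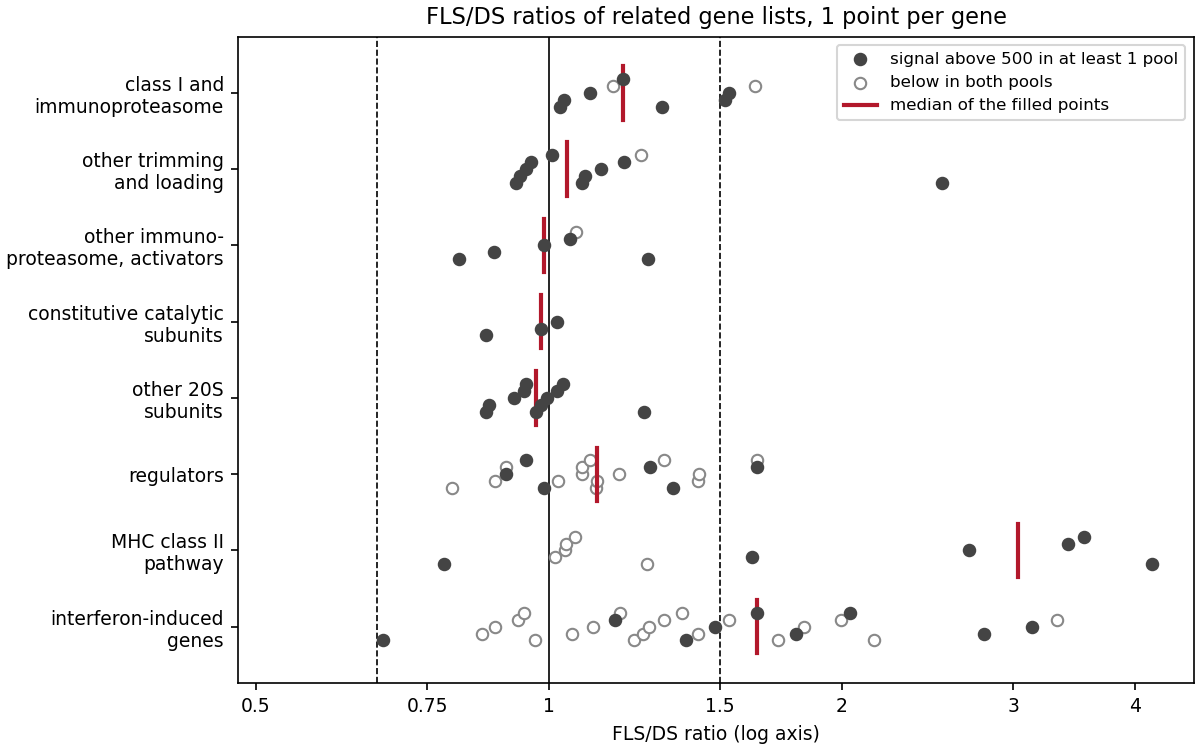
FLS/DS ratio (log axis) of each gene in 8 lists, 1 point per gene, filled where a signal exceeded 500 in at least 1 pool, with a red bar at the median of the filled points and dashed lines at 1.5-fold in both directions. The class I and immunoproteasome genes lie between 1.03 and 1.63, the standard proteasome subunits around 1, and 4 class II genes at 2.70 to 4.17, of which 3 exceeded 500 only in FLS livers.

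In the reference genome 9 of the 10 genes lie in the MHC on chromosome 17, and B2m lies on chromosome 2. Psmb9, Tap1, Psmb8 and Tap2 are next to each other in that order, with ratios of 1.31, 1.16, 1.53 and 1.63, and all 4 had the higher signal in the FLS pool. H2-Ob at 57.9 in FLS livers against 54.5 in DS livers follows Tap2, and after it come H2-Ab1, H2-Aa and H2-Eb1 with ratios of 4.17, 3.42 and 3.55. Tapbp and H2-K1 lie on one side of this group, and H2-D1, H2-Q10 and H2-T23 on the other. In the interval from 2 genes before Tapbp to 2 genes after H2-T23, 30 genes other than the listed ones were measured, with a median ratio of 1.07. Of these, 5 were at least 1.5-fold higher, namely Tubb5 and, with signals above 500 only in FLS livers, Zbtb22 and the 3 class II genes, and the heat shock genes Hspa1a and Hspa1b were lower, with ratios of 0.204 and 0.456. Zbtb22, a gene beside Tapbp, gave 560 in FLS livers against 354 in DS livers (ratio 1.58), close to the 1.52 of Tapbp. Rgl2, on the other side of Tapbp, lay below 500 with 303 in FLS livers against 333 in DS livers (ratio 0.908).

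**Figure D4:**
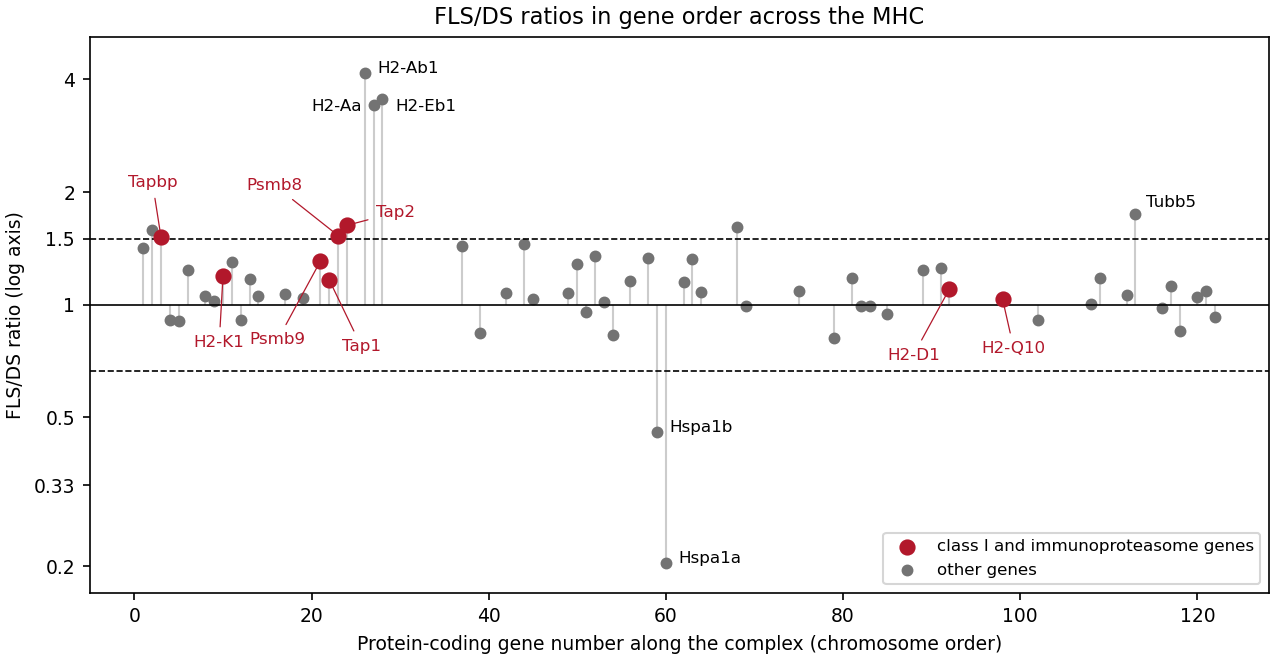
FLS/DS ratio (log axis) of genes with a signal above 200 in at least 1 pool against their number in chromosome order across the MHC, with class I and immunoproteasome genes as red points and dashed lines at 1.5-fold in both directions. Psmb9, Tap1, Psmb8 and Tap2 have ratios from 1.16 to 1.63, and H2-D1 and H2-Q10 have ratios of 1.10 and 1.04. H2-Ab1, H2-Aa and H2-Eb1, at 3.42 to 4.17, follow after H2-Ob, which lay below 200 and is not plotted. Genes with only shared probe sets, such as H2-T23, H2-Q7 and H2-T22, have no point.

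Markers of other cell types were read beside these results. Leukocytes are known to express class I genes and the immunoproteasome strongly. Of 6 pan-leukocyte markers, 5 had a ratio above 1, with a median of 1.46 over all 6 and a summed signal of 2344 in FLS livers against 1905 in DS livers. Cd52 measured 265 in FLS livers against 127 in DS livers, and Ptprc, the CD45 gene, 373 in FLS livers against 251 in DS livers, while Lcp1, the one marker above 500, had a ratio of 0.850. Cytotoxic T cell markers were all below 500, with a summed signal of 922 in FLS livers against 956 in DS livers over 8 genes, of which 4 had a ratio above 1, with a median ratio of 0.999. Cd8a among them gave 167 in FLS livers against 186 in DS livers. Natural killer cell markers summed to 510 in FLS livers against 589 in DS livers over 5 genes, of which 3 had a ratio above 1, with a median ratio of 1.03, and Eomes gave 114 in FLS livers against 199 in DS livers. Dendritic cell markers summed to 754 in FLS livers against 808 in DS livers, also over 5, with 1 ratio above 1. Of 9 Kupffer cell and macrophage markers, 2 had a ratio above 1, the median ratio was 0.744 and the sum 4369 in FLS livers against 5150 in DS livers. Neutrophil markers summed to 651 in FLS livers against 761 in DS livers over 4 genes, with 1 ratio above 1, and B cell markers to 845 in FLS livers against 1026 in DS livers, again over 4, with 0 above 1. Many of these lymphoid and myeloid signals lay near the array medians, where a ratio carries little information. In tissue sections of FLS livers of the same age, the study stained clusters of neutrophils, lymphocytes and macrophages. It also counted more inflammatory foci in FLS than in DS livers. Cholangiocyte markers summed to 779 in FLS livers against 594 in DS livers over 5 genes, of which 2 had a ratio above 1, with a median ratio of 0.985. Sox9 gave 365 in FLS livers against 140.2 in DS livers and was the one cholangiocyte marker past 1.5-fold. Endothelial and stellate cell markers had median ratios of 1.04 and 1.18 over 6 genes each. The part of these cells in the ratios of the class I and immunoproteasome genes was not tested.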

How the data were processed

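Liver RNA of 3 FLS and 3 DS mice was measured as 1 pool per strain, on 1 array each. The authors normalized the arrays by MBEI (PM-only), a model-based index of the perfect-match probes alone, and deposited signal intensities on a linear scale. Affy is named in the submitters' processing notes, and no between-array scaling method is stated in the sources used here.

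From these signals the FLS/DS ratio was computed for each probe set, with no offset. Of 45101 probe sets, 34958 had 1 gene symbol, 932 had several and 9211 were unnamed. For 34754 of those with 1 symbol, the Entrez number was found in a RefSeq table (GRCm38.p6), and the symbol there was used. Probe sets with several symbols gave no gene value. Folds of 1.5 and 2 were counted among genes above 500 in at least 1 pool. Besides the 10 genes, 20 lists of 209 names were read, of which 172 were found, and up to 4 measured genes with the largest absolute log2 ratio were named per list; others were picked after their values were seen. The genes and lists were chosen with earlier results of these data known. The alternatives were other scalings (quantile, median centring, loess with a fraction of 0.4, division by Actb), an offset of 50, other probe set choices and other signal limits. The gene choice and the 2-fold calls were tested on simulated data, and the 1.5-fold counts were not. Calculations ran in Python 3.11.15 with pandas 2.3.3, numpy 2.4.6 and, for loess, statsmodels 0.14.6, and plots were drawn in matplotlib 3.10.9. With 2 arrays, precision is limited by their number, and pooling leaves no measure of the spread between mice.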

Additional observations from a re-analysis of the deposited data

How the results depend on the processing

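The number of class I and immunoproteasome genes at least 1.5-fold higher, 2 of 7, rested on Psmb8 and Tapbp, whose ratios of 1.53 and 1.52 lie close to the limit. It was 1 under quantile normalization, under loess and with an offset of 50, and 0 with the median of each gene's probe sets. The shares of all measured genes past 1.5-fold upward were then 5.87%, 5.87%, 5.75% and 4.35%. The count was 2 of 7 after median centring and with a signal above 500 in both pools, and 2 of 5 without _x_at and _s_at probe sets. The shares of all measured genes were then 7.25%, 4.15% and 6.16%. The count was 3 of 7 after division by Actb, and 3 of 9 with a signal limit of 200 or with none. The shares of all genes counted were then 13.99%, 5.35% and 3.02%. No setting gave a gene at least 1.5-fold lower or 2-fold in either direction. The median log2 ratio of the genes ran from 0.24 to 0.46. Median centring and division by Actb shift every log2 ratio alike, by less than 0.224, the SD between probe sets of 1 gene. They therefore could not move a ratio beyond it, and genes with 1 probe set could not move under other probe set choices. Of 62 ratios of single genes under all the alternatives, 61 moved by less than this SD. The exception was H2-D1 without _x_at and _s_at probe sets, at 1.34, from a probe set with 182 in FLS livers against 136 in DS livers. The single ratio below 1 was that of Tap1 over its 4 probe sets, at 0.997. Division by Actb, whose log2 ratio was -0.21, raises every ratio alike and put the median log2 ratio of measured genes at 0.25, against 0.04 as deposited. It moved the share of higher genes among measured genes past 1.5-fold to 84.0%, against 57.6% as deposited. Array signals do not give a depth, and signals near the array medians, such as 3 of the 4 probe sets of Tap1, carry little information on a ratio.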

Other observations

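Class I-like molecules encoded outside the MHC, which share the fold of class I heavy chains, were also on the arrays, with 4 of 8 found above 500. Hfe, which pairs with beta-2-microglobulin and takes part in the control of hepcidin and iron uptake, measured 1529 in FLS livers against 849 in DS livers (ratio 1.80). It was the 1 of these 4 genes that passed 1.5-fold. Cd1d1, which presents lipids to natural killer T cells, gave 6973 in FLS livers against 6289 in DS livers (ratio 1.11). Fcgrt, the neonatal Fc receptor that protects albumin and IgG from breakdown, had a ratio of 1.02, and Azgp1, a secreted zinc-binding glycoprotein, of 1.01. Hfe, Cd1d1, Fcgrt and Azgp1 were each read from 1 array per strain, so none of these differences was tested.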
